A study of Mus musculus with 8 samples.

Results

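The glucocorticoid receptor and 9 genes tied to it were followed in whole kidney of diabetic mice given a miRNA mimic. The 10 genes are the receptor gene Nr3c1, the receptor targets Fkbp5, Tsc22d3, Sgk1, Zbtb16, Klf9, Klf15 and Errfi1, and the hormone-converting enzymes Hsd11b1 and Hsd11b2. They were taken as every non-control probe whose gene name on the array is 1 of these 10 symbols, which gave 19 probes of the 10 genes, out of 22367 genes tested in all. All 10 genes passed the filter on dim probes, with 16 of the 19 probes, and the brightest probe of each gene was well above background on all 8 arrays.

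The study hybridised kidney RNA of 8 male mice, 20 weeks old, 2 in each of 4 groups, to Agilent single-dye arrays. Db/db mice given miRNA-181b-5p-mimic-PEI-NPs form the mimic group. Db/db mice given control-miRNA-PEI-NPs form the control miRNA group. Db/db mice with no treatment form the untreated group. All 3 of these groups are C57BLKS/J Iar -+Leprdb/+Leprdb, so each mouse carries the Leprdb allele on both chromosomes and lacks the long leptin receptor in every cell, and such mice become obese and diabetic. The normal group is the m/m strain C57BLKS/J Iar -m+/m+. How much was given, by which route and how often is not given in the sources, and no group of normal mice with nanoparticles was analysed here.

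Glucocorticoids such as corticosterone, the main one in mice, cross the cell membrane and bind a receptor held by chaperones in the cytoplasm. The bound receptor enters the nucleus and attaches to DNA at glucocorticoid response elements, which are a pair of inverted half-sites around a short spacer, and genes near such sites are induced or repressed. Before the hormone meets its receptor, 11-beta-hydroxysteroid dehydrogenases adjust it: the enzyme of Hsd11b1 regenerates active hormone from its inactive keto form, and that of Hsd11b2 inactivates it, which in kidney keeps the mineralocorticoid receptor of the distal nephron open to aldosterone. In whole tissue, fewer cells of a type and less RNA per cell cannot be told apart.

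2 kinds of sequence bear on the values that follow. The mature miRNA named in the treatment, from RefSeq (GRCm38.p6), is the same from its 2 mouse genes on chromosomes 1 and 2 and is shown because it is the agent that separates the mimic group from the control miRNA group; capitals mark the seed, bases 2 to 8.
miR-181b-5p: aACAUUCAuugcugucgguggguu

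The promoter windows of the members were searched for the response element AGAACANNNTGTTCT, which reads the same on both strands, and for its half-site AGAACA on either strand (TGTTCT). RefSeq windows of 300 bases, 250 before and 50 after a transcript start, were in hand for 7 of the 10 genes, 15 windows in all. The exact element was in 3 of 32851 windows of all genes (0.00913%), and 1 of these 3 belonged to Sgk1. A half-site, the elements' own included, was in 4 of the 15 member windows, against 6233 of all windows (19.0%). Among 38 windows of the other hormone-induced genes described further on, none held the exact element and 5 held a half-site (13.2%). 3 of the 6 Sgk1 windows and 1 of the 3 Tsc22d3 windows held one, and the windows of Fkbp5, Klf9, Klf15, Errfi1 and Hsd11b1 held neither motif. The 250 bases before 1 Sgk1 start, where the element begins 189 bases upstream and a lone half-site 242 bases upstream, and before 1 Tsc22d3 start, where a half-site begins 185 bases upstream, are shown because the 2 genes passed the test in mimic kidneys. The last stretch is from Acnat2, which is no member and returns at the end. Acnat2 holds another of the 3 exact elements, 102 bases before 1 of its starts. Capitals mark the half-sites, and coordinates are GRCm38.p6. A match of letters is a description and does not show binding.
Sgk1, chr10:21993640-21993889, plus strand: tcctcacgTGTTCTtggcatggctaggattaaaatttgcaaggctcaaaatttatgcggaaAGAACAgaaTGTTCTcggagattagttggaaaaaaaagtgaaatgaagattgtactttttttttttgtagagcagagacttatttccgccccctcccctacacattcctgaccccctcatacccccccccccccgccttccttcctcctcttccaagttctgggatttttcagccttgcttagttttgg
Tsc22d3, chrX:140600523-140600772, minus strand: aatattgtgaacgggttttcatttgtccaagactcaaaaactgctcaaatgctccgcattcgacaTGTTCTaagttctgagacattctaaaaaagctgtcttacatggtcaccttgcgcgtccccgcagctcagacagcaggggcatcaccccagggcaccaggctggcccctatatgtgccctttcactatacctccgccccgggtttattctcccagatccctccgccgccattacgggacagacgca
Acnat2, chr4:49408152-49408401, minus strand: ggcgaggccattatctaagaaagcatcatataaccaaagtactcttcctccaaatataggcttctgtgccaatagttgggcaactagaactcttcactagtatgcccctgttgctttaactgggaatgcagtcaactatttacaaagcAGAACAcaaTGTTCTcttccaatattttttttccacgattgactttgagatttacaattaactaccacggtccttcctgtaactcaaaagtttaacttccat

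All 8 arrays came from 1 slide, with 56.5% to 62.5% of spots well above background. Levels are log2 of a probe's signal over the 75th percentile of its array, so that 0 is that percentile; they compare arrays for 1 probe and never 1 probe with another. The mimic replicate 1 array stood apart from the other 7. On principal component 1 (43.2% of the variance) its coordinate was 92.8, against 21.5 for mimic replicate 2 and −66.2 to 7.57 for the other 6 arrays. The summed level of 4 tubular injury genes, in units of the 75th percentile, was 51.9 on it, against 0.857 to 1.96 on the other 7 arrays. 7 proximal tubule markers summed to 703 there, against 1047 to 1317, and 4 principal cell markers of the collecting duct to 41.6, against 74.1 to 105. 8 immediate early genes summed to 75.7 there, against 16.9 to 31.3. 10 adrenal markers were checked because the gland lies on the kidney. The steroidogenic genes Cyp11a1, Cyp11b1 and Cyp11b2 and the chromaffin gene Dbh were not well above background on any array. Star, Cyp21a1, Hsd3b1, Akr1b7 and Th were well above background on all 8 arrays, and Mc2r on 2. The list summed to 3.87 and 2.15 in mimic replicates 1 and 2 and 1.77 to 1.90 in the control miRNA group. It summed to 1.84 to 1.89 in the untreated group and 1.83 to 2.06 in the normal group. On mimic replicate 1 the log2 level of Akr1b7 was 1.65, against −0.56 to −0.18 on the other 7 arrays. Mc2r (−3.95) was also highest on that array. Cyp21a1 (−2.49), Hsd3b1 (−3.65) and Th (−1.79) were lowest there, and Star (−3.80) lay within the range of the other arrays. Normal replicate 1 held more fat marker signal, with 9 markers summing to 110, against 13.8 to 19.1 on the other 7 arrays. The median log2 level of the 9 was 1.69 and −1.71 in normal kidneys and −4.06 and −3.64 in untreated db/db kidneys. It was −0.99 and −3.83 in control miRNA kidneys and −3.20 and −3.64 in mimic kidneys. For 6 urothelium markers the median difference from normal was −2.45 in mimic, −1.42 in control miRNA and −2.96 in untreated db/db kidneys. No fat or urothelium marker passed there. The part of these markers in the results was not tested except where a value without mimic replicate 1 is given.

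**Figure D1:**
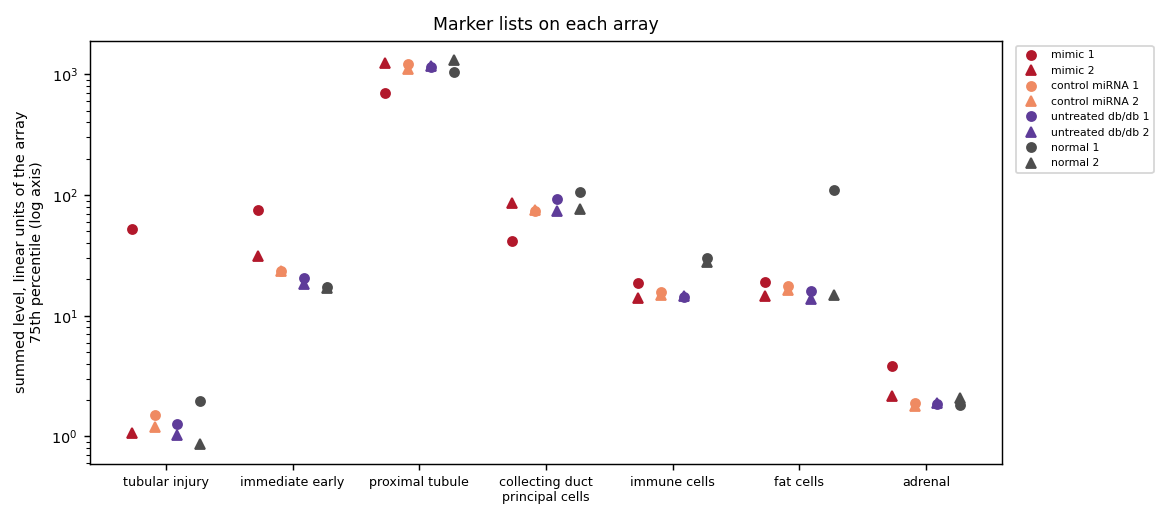
Summed level of each marker list (linear units of the array's 75th percentile, log axis) on each of the 8 arrays, by group (colour) and replicate (circle 1, triangle 2). Mimic replicate 1 sits at 51.9 for tubular injury genes, where the other 7 arrays lie between 0.857 and 1.96, and below the others for proximal tubule and principal cell markers; normal replicate 1 sits at 110 for fat cell markers.

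By the mean of the brightest probe, Fkbp5, Tsc22d3, Sgk1, Zbtb16 and Errfi1 lay highest in mimic kidneys, Klf9 and Hsd11b2 lay highest in untreated db/db kidneys, and Klf15, Hsd11b1 and Nr3c1 lay lowest in mimic kidneys; not all of these differences passed a test. With limma on all 8 arrays and Benjamini-Hochberg adjustment over all 33639 probes, 6 of the 16 member probes passed an adjusted p of 0.05 in mimic against normal kidneys, where 7.37% of all probes did: the 2 of Fkbp5, the 2 of Tsc22d3, that of Sgk1 and that of Hsd11b1. In untreated db/db against normal kidneys 1 of the 16 passed, a Tsc22d3 probe, with 3.84% of all probes, so the members' share was near the background. In control miRNA against normal kidneys none of the 16 passed, with 1.51% of all probes, and 4 of the 16 had an unadjusted p under 0.05, as did 21.9% of all probes. These 3 comparisons share the 2 normal arrays. No probe of any gene passed between the 3 db/db groups (0% in each pair), where 2 member probes in control miRNA against untreated, 6 in mimic against untreated and 7 in mimic against control miRNA had an unadjusted p under 0.05, against 3.71%, 14.3% and 9.44% of all probes. With 2 mice in a group, an exact permutation test cannot go below 0.333, and every adjusted p below is limma's.

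The member calls in mimic kidneys leaned on the spread shared over all arrays. Of the 10 genes by their brightest probes, 4 passed in mimic against normal; 5 passed without mimic replicate 1, 6 without mimic replicate 2, 1 without normal replicate 1, 0 without normal replicate 2 and 2 without any single one of the untreated or control miRNA arrays. The share of all genes that passed also moved: it was 7.72% with all arrays, 7.44% without mimic replicate 1, 26.5% without mimic replicate 2, 1.36% and 1.27% without normal replicates 1 and 2, and 2.89% to 3.60% without an untreated or control miRNA array. A fit of only the 4 mimic and normal arrays called 38 probes in all, none of a member. In untreated against normal kidneys 0 of the 10 passed, but 5 did (Fkbp5, Sgk1, Zbtb16 and Hsd11b2 higher, Hsd11b1 lower) when either mimic array was left out of the shared spread, at unchanged log2 differences; 14.2% of all genes passed then, against 3.67% with all arrays.

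**Figure D2:**
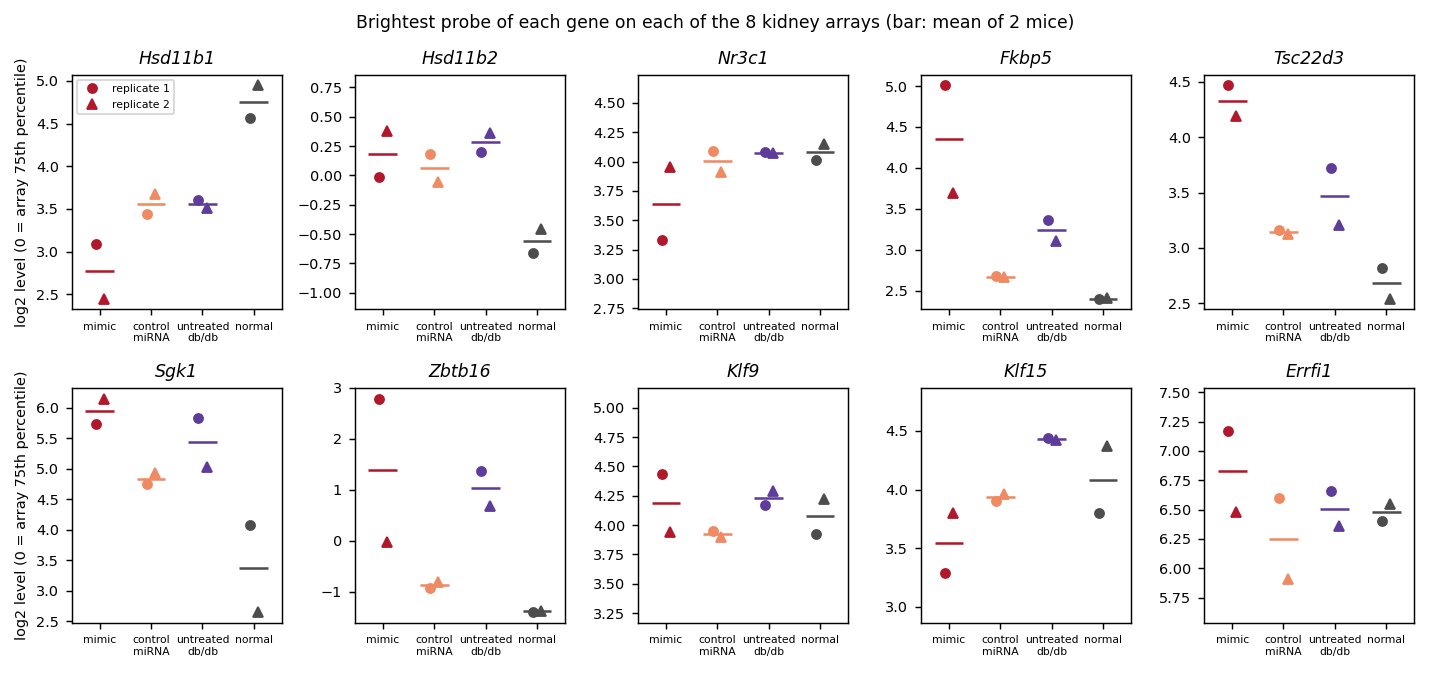
Log2 level (0 is the array's 75th percentile) of the brightest probe of each gene on each array, by group from mimic to normal; circles are replicate 1, triangles replicate 2 and bars the mean of 2 mice. Hsd11b1 lies lowest and Tsc22d3 and Fkbp5 highest in both mimic kidneys, and the 2 control miRNA kidneys sit between the untreated db/db and normal kidneys for Fkbp5, Tsc22d3, Sgk1 and Zbtb16.

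The hormone-converting enzymes lay on opposite sides of normal in all 3 db/db groups. Hsd11b1 (probe at mm9 chr1:195048169-195048228, minus strand) had log2 levels of 3.09 and 2.45 in mimic kidneys, 3.44 and 3.68 in control miRNA kidneys, 3.60 and 3.51 in untreated db/db kidneys and 4.56 and 4.95 in normal kidneys. All 6 db/db kidneys lay below both normal kidneys, and both mimic kidneys below the other 4. The gene fell in mimic against normal kidneys, with a log2 difference of −1.99 ± 0.25 (SE), 3.96-fold lower, adjusted p = 0.0109; without mimic replicate 1 it was −2.31 with an adjusted p of 0.00492, and the call was lost without normal replicate 1 (adjusted p = 0.0511) or normal replicate 2 (0.0673). The difference was −1.20 ± 0.25 in untreated db/db against normal (adjusted p = 0.0544) and −1.20 ± 0.25 in control miRNA against normal (0.0714), both short of the threshold. Mimic against control miRNA gave −0.79 ± 0.25 with no overlap of the groups (adjusted p = 0.433).

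Hsd11b2, whose probe joins 2 stretches within 218 bases of mm9 chr8:108046785-108047002 on the plus strand, had log2 levels of −0.01 and 0.38 in mimic kidneys, 0.18 and −0.06 in control miRNA kidneys, 0.20 and 0.36 in untreated db/db kidneys and −0.66 and −0.46 in normal kidneys. All 6 db/db kidneys lay above both normal ones, and the 3 db/db groups lay close together. 4 markers of the distal convoluted tubule, a neighbouring part of the nephron, summed to 69.5 and 198 in mimic and 199 and 151 in control miRNA kidneys. Their sums were 217 and 188 in untreated db/db and 60.7 and 77.3 in normal kidneys. The 4 principal cell markers summed to 41.6 and 85.6 in mimic and 74.1 and 75.6 in control miRNA kidneys. They summed to 93.2 and 74.1 in untreated db/db and 105 and 76.3 in normal kidneys. The part of both lists in the Hsd11b2 result was not tested. The differences from normal were 0.74 ± 0.18 in mimic, 0.62 ± 0.18 in control miRNA and 0.84 ± 0.18 in untreated db/db kidneys, with adjusted p of 0.0620, 0.129 and 0.0606, so none passed. Without mimic replicate 1, whose principal cell markers were low, the mimic difference was 0.94 with an adjusted p of 0.0397. Of the other genes of hormone supply and clearance, 6 of 7 were tested and 1 passed anywhere: Abcb1b, a steroid-exporting pump, rose by 1.19 ± 0.18 in mimic against normal kidneys (adjusted p = 0.0192), although its other tested probe had the opposite sign and the call was lost without either normal array. H6pd, which supplies the cofactor for the Hsd11b1 enzyme, differed by −0.37 ± 0.33 in untreated db/db against normal (adjusted p = 0.519), and Serpina6, the carrier of the hormone in plasma, was not well above background on any array. The 3 genes of this list with the smallest p in untreated db/db against normal kidneys were Abcb1b (0.82 ± 0.18, adjusted p = 0.0613), Abcb1a (0.57 ± 0.14, 0.0790) and the steroid 5-alpha-reductase gene Srd5a2 (−1.43 ± 0.45, 0.120). Leaving out either one of the mimic arrays gave 2 higher and 1 lower in untreated db/db and 1 lower in control miRNA against normal, and without mimic replicate 2 there were 1 higher and 3 lower in mimic against normal; the shares of all genes that passed in these fits were 14.2%, 10.3% and 26.5%.

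The receptor itself did not pass in any comparison. The brightest Nr3c1 probe had log2 levels of 3.33 and 3.95 in mimic kidneys, 4.09 and 3.91 in control miRNA kidneys, 4.08 and 4.07 in untreated db/db kidneys and 4.02 and 4.15 in normal kidneys. The other probe had 3.04 and 3.48 in mimic, 3.64 and 3.36 in control miRNA, 3.72 and 3.54 in untreated db/db and 3.78 and 3.82 in normal kidneys. Mimic replicate 1 was the lowest array on both probes, and the untreated and normal kidneys overlapped on the brightest. On the other probe all 3 db/db groups lay below normal without overlap. That probe differed from normal by −0.55 ± 0.19 in mimic (adjusted p = 0.120) and −0.30 ± 0.19 in control miRNA (0.393). In untreated db/db against normal it differed by −0.17 ± 0.19 (0.607). The brightest probe differed by −0.44 ± 0.21 in mimic against normal (adjusted p = 0.222), −0.08 ± 0.21 in control miRNA against normal (0.851) and −0.01 ± 0.21 in untreated db/db against normal (0.988). Without mimic replicate 1 the mimic difference was −0.13, and without mimic replicate 2, which leaves the array that stood apart, it was −0.75 with an adjusted p of 0.0188.

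None of 13 receptor partners, which are chaperones, co-regulators and the mineralocorticoid receptor gene Nr3c2, passed in any comparison, against 7.72% of all genes in mimic, 1.62% in control miRNA and 3.67% in untreated db/db against normal. Their median log2 difference from normal was 0.06 in mimic, −0.10 in control miRNA and −0.10 in untreated db/db kidneys, where the medians of all genes were −0.04, −0.01 and −0.01. The 3 with the smallest p in untreated db/db against normal kidneys were the co-repressor gene Ncor1 (−0.43 ± 0.11, adjusted p = 0.0799) and the chaperone genes Hsp90ab1 (−0.57 ± 0.17, 0.110) and Hsp90aa1 (−0.65 ± 0.25, 0.165). Nr3c2 differed by 0.38 ± 0.18 (adjusted p = 0.240). Leaving out either one of the mimic arrays, 2 partners passed as lower in untreated db/db and 2 in control miRNA against normal, and without mimic replicate 2 there was 1 higher in mimic against normal, in fits where 14.2%, 10.3% and 26.5% of all genes passed.

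Fkbp5 encodes a co-chaperone that lowers the receptor's affinity for hormone and is itself induced by it, a short feedback loop. Its brightest probe (mm9 chr17:28536060-28536119, minus strand) had log2 levels of 5.01 and 3.69 in mimic kidneys, 2.68 and 2.67 in control miRNA kidneys, 3.36 and 3.11 in untreated db/db kidneys and 2.40 and 2.41 in normal kidneys. The groups did not overlap, with mimic highest, then untreated db/db, control miRNA and normal, and mimic replicate 1 stood above mimic replicate 2. A probe nearer the start of the gene gave the same order of groups, with 1.74 and 0.44 in mimic, −0.49 and −0.57 in control miRNA, 0.07 and −0.23 in untreated db/db and −1.06 and −0.84 in normal kidneys; the third was not well above background on any array. Fkbp5 rose in mimic against normal by 1.94 ± 0.39, 3.85-fold, adjusted p = 0.0403, and by 2.04 ± 0.39 on the second probe (0.0365). Without mimic replicate 1 the rise was 1.28, 2.44-fold, with an adjusted p of 0.0116, while the call was lost without any 1 array of the other 3 groups (adjusted p from 0.0818 to 0.142). In untreated db/db against normal the difference was 0.83 ± 0.39 (adjusted p = 0.240), and 0.0161 without mimic replicate 1; in control miRNA against normal it was 0.27 ± 0.39 (0.731). Mimic against control miRNA gave 1.68 ± 0.39 (adjusted p = 0.292), or 1.02 without mimic replicate 1 (0.102).

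Tsc22d3 encodes GILZ, a leucine zipper protein induced by glucocorticoids that holds back NF-kappaB and AP-1. The brightest probe (mm9 chrX:137074094-137074153, minus strand) had log2 levels of 4.47 and 4.19 in mimic kidneys, 3.16 and 3.12 in control miRNA kidneys, 3.72 and 3.21 in untreated db/db kidneys and 2.82 and 2.54 in normal kidneys. Both mimic kidneys lay above the other 6 and near each other, and the other 3 groups did not overlap. Tsc22d3 rose in mimic against normal by 1.65 ± 0.21, 3.14-fold, adjusted p = 0.0117, and without mimic replicate 1 by 1.51 (0.0269); the call of this probe was lost without normal replicate 1 (0.0559) or normal replicate 2 (0.0706). Its second probe had 2.66 and 2.51 in mimic, 1.54 and 1.51 in control miRNA, 2.14 and 1.79 in untreated db/db and 1.17 and 1.04 in normal kidneys. On that probe the gene rose in mimic against normal by 1.48 ± 0.16 (adjusted p = 0.00749) and in untreated db/db against normal by 0.86 ± 0.16 (0.0434), while the brightest probe in untreated db/db gave 0.78 ± 0.21 (0.0881). The untreated call of the second probe was lost without any 1 of the normal, untreated or control miRNA arrays (adjusted p from 0.0987 to 0.212). Mimic against control miRNA gave 1.19 ± 0.21 (adjusted p = 0.182) and 1.06 ± 0.16 (0.148) on the 2 probes.

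Sgk1, a serum- and glucocorticoid-induced kinase that keeps the epithelial sodium channel at the surface of distal nephron cells, and which the mineralocorticoid receptor also induces, had the largest called difference of the members. Its probe (mm9 chr10:21719390-21719449, plus strand) had log2 levels of 5.73 and 6.15 in mimic kidneys, 4.75 and 4.92 in control miRNA kidneys, 5.83 and 5.03 in untreated db/db kidneys and 4.08 and 2.65 in normal kidneys. Every db/db kidney lay above both normal kidneys, which themselves differed by more than any other pair, and the mimic and untreated groups overlapped. Sgk1 rose in mimic against normal by 2.58 ± 0.49, 5.96-fold, adjusted p = 0.0351. This call was lost without mimic replicate 1 (2.78, adjusted p = 0.0560), without normal replicate 2 (1.86, 0.0905) and without any 1 of the untreated or control miRNA arrays (0.0632 to 0.0721). The difference was 1.47 ± 0.49 in control miRNA against normal (adjusted p = 0.159) and 2.06 ± 0.49 in untreated db/db against normal (0.0695), and mimic against control miRNA gave 1.10 ± 0.49 (0.552). A second Sgk1 probe was not well above background on any array.

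None of 11 genes of distal sodium transport that Sgk1 and its partners act on passed in any comparison, yet 10 of the 11 were above normal in each db/db group, where 46.1% of all genes were in mimic, 48.5% in control miRNA and 49.3% in untreated db/db, with a median log2 difference of 0.38 in mimic, 0.22 in control miRNA and 0.25 in untreated db/db kidneys. The 4 distal convoluted tubule markers given beside Hsd11b2, of which Slc12a3 is also among the 11, were likewise all above normal in each group. Their medians were 0.43, 0.63 and 0.75, with no call. Of the 4 principal cell markers, 0, 1 and 2 were above normal in the same order of groups. Those medians were −0.48, −0.11 and 0.02, with no call. The part of both marker lists was not tested. In untreated db/db against normal, Scnn1a, the alpha subunit of the sodium channel, differed by 0.54 ± 0.18 (adjusted p = 0.126), the kinase gene Wnk1 by 0.78 ± 0.28 (0.147) and Scnn1g, the gamma subunit, by 0.64 ± 0.26 (0.187). In mimic against normal, Scnn1a differed by 0.78 ± 0.18 (0.0517). Without mimic replicate 1 the median of the 11 in mimic against normal was 0.58, and without mimic replicate 2 it was 0.03. On mimic replicate 1 the principal cell markers were lowest of all arrays. Its distal convoluted sum of 69.5 lay below the other db/db arrays and within the normal range of 60.7 to 77.3. Leaving out either one of the mimic arrays does not change the differences in untreated db/db and control miRNA against normal.

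Zbtb16 encodes the zinc finger repressor PLZF, a steroid-induced gene in many human cell types. Its brightest probe (mm9 chr9:48462419-48462478, minus strand) had log2 levels of 2.79 and −0.03 in mimic kidneys, −0.92 and −0.81 in control miRNA kidneys, 1.38 and 0.69 in untreated db/db kidneys and −1.40 and −1.38 in normal kidneys. The 2 mimic kidneys lay on either side of the untreated ones, and the control miRNA kidneys lay just above the normal ones and below all other db/db kidneys. No difference from normal passed: 2.77 ± 0.82 in mimic (adjusted p = 0.0913), 0.52 ± 0.82 in control miRNA (0.749) and 2.42 ± 0.82 in untreated db/db (0.137). The pair of mimic kidneys set the spread here: without mimic replicate 1 the untreated difference had an adjusted p of 0.00703 and the mimic difference was 1.36 (0.0484).

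The second Zbtb16 probe, which crosses a splice junction over 52017 bases of mm9 chr9, had −1.96 and −3.44 in mimic, −5.05 and −5.08 in control miRNA, −3.33 and −3.29 in untreated db/db and −4.01 and −4.13 in normal kidneys. It was not well above background on either control miRNA array and on only 1 of the 2 normal arrays, so folds against that group are bounds set by the lowest signal well above background. They were at least 3.66-fold higher in mimic (measured means −2.70 and −5.07, adjusted p = 0.190) and, for control miRNA, at least 2.40-fold lower than in untreated db/db (means −5.07 and −3.31, adjusted p = 1.00) and at least 1.42-fold lower than in normal kidneys (means −5.07 and −4.07, 0.243). On this probe control miRNA lay below normal, itself partly at background, where the brightest probe put it above; the 2 probes gave the same order for mimic and untreated db/db against normal.

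Klf9, Klf15 and Errfi1 did not pass in any comparison. Klf9 and Klf15 encode zinc finger factors that carry the receptor's signal to further genes, and Errfi1 encodes an inhibitor of the epidermal growth factor receptor. Klf9 had log2 levels of 4.44 and 3.94 in mimic, 3.95 and 3.90 in control miRNA, 4.17 and 4.29 in untreated db/db and 3.93 and 4.22 in normal kidneys, and the groups overlapped except that control miRNA lay below untreated db/db. Its differences from normal were 0.11, −0.15 and 0.16 in the same order of groups (SE 0.20, adjusted p from 0.655 to 0.725), and the mimic difference turned to −0.13 without mimic replicate 1. Klf15 had 3.29 and 3.80 in mimic, 3.91 and 3.96 in control miRNA, 4.44 and 4.42 in untreated db/db and 3.80 and 4.37 in normal kidneys. Both mimic kidneys lay below the other db/db kidneys, and the differences from normal were −0.54, −0.15 and 0.35 (SE 0.24, adjusted p from 0.192 to 0.752). Errfi1 had 7.17 and 6.48 in mimic, 6.60 and 5.91 in control miRNA, 6.66 and 6.36 in untreated db/db and 6.41 and 6.55 in normal kidneys, all groups overlapping. Its differences from normal were 0.35, −0.23 and 0.03 (SE 0.31, adjusted p from 0.480 to 0.961), and a second, dimmer Errfi1 probe gave −0.46, −0.44 and −0.35 (SE 0.30), opposite in sign for mimic and untreated db/db.

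**Figure D3:**
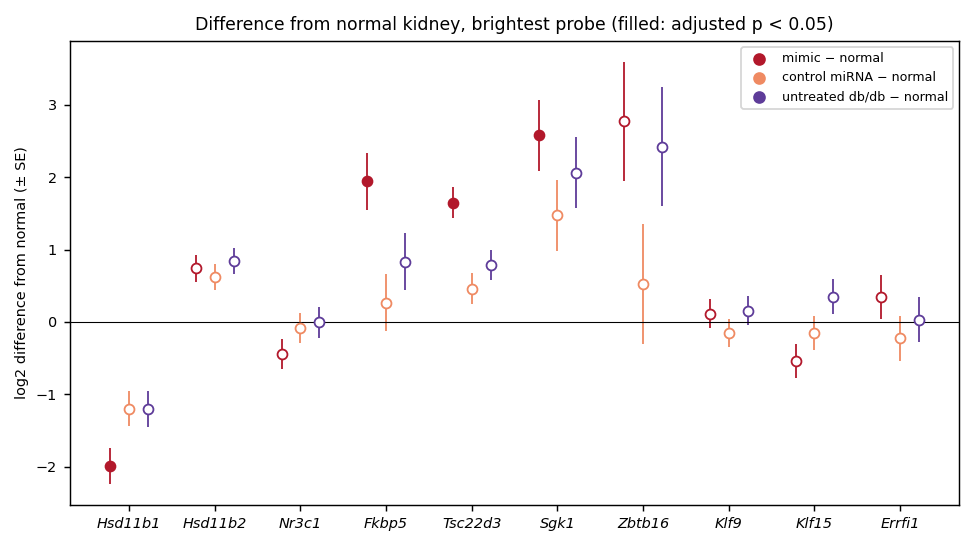
Log2 difference from normal kidney (± SE) of the brightest probe of each gene in mimic, control miRNA and untreated db/db kidneys; filled points have a limma adjusted p under 0.05 over all probes. The 4 filled points are all mimic: Hsd11b1 at −1.99, Fkbp5 at 1.94, Tsc22d3 at 1.65 and Sgk1 at 2.58. The 3 differences of a gene share the normal arrays and 1 estimate of spread.

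Set against untreated db/db, the control miRNA kidneys had lower levels of most members, with no call. The log2 difference was negative in 9 of the 10 genes, with a median of −0.32 where that of all genes was −0.02, and in 7 of the 10 both control miRNA kidneys lay below both untreated ones, which held for 22.3% of all genes. The 7 were Zbtb16 (−1.90 ± 0.82), Sgk1 (−0.59 ± 0.49), Fkbp5 (−0.57 ± 0.39), Klf15 (−0.50 ± 0.24), Tsc22d3 (−0.32 ± 0.21), Klf9 (−0.31 ± 0.20) and Hsd11b2 (−0.22 ± 0.18), each with an adjusted p of 1.00. No probe on the array passed in this comparison, and 1247 (3.71%) had an unadjusted p under 0.05. Mimic against control miRNA had a median of 0.42 over the 10 genes, with 7 positive; 4 lay higher without overlap (Fkbp5, Tsc22d3, Sgk1 and Zbtb16), which held for 18.8% of all genes, and without mimic replicate 1 the median was 0.27. These 2 comparisons share the control miRNA arrays, so a member that happens to be low there is low in the first and high in the second. The control miRNA and mimic arrays lay in 1 row of the slide and the untreated and normal arrays in the other. Treatment with nanoparticles and slide row therefore cannot be told apart. The normal and control miRNA arrays lay in columns 1 and 2 of the slide, and the untreated and mimic arrays in columns 3 and 4. Group and column thus cannot be told apart in untreated against normal or in mimic against control miRNA. Mimic and normal arrays differed in both row and column.

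Of 37 other genes known to be induced by glucocorticoids, mostly from liver, muscle and cultured cells, 36 were tested. The list was chosen with earlier results of these data known, so its counts beside the shares of all genes are a description. In mimic against normal kidneys 8 rose and 1 fell, in control miRNA against normal 3 rose, and in untreated db/db against normal 4 rose and none fell. The higher calls take 3.16%, 0.662% and 1.53% of all genes in these comparisons. Differences were positive in 31, 31 and 34 of the 36, with medians of 0.86, 0.35 and 0.55. Both kidneys lay above both normal kidneys in 26 genes in mimic, 21 in control miRNA and 23 in untreated db/db, against 24.9%, 29% and 31.7% of all genes.

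Per1, a clock gene with a hormone-driven component, passed in all 3 db/db groups against normal. Its log2 levels were 3.85 and 3.65 in mimic, 3.26 and 3.17 in control miRNA, 3.72 and 3.73 in untreated db/db and 1.96 and 1.89 in normal kidneys, so every db/db kidney lay above both normal ones. It rose by 1.82 ± 0.12 in mimic (adjusted p = 0.00361), 1.29 ± 0.12 in control miRNA (0.0147) and 1.80 ± 0.12 in untreated db/db (0.00455); the control miRNA call was lost without any 1 of the normal, untreated or control miRNA arrays (adjusted p from 0.0629 to 0.124), and the untreated call without either untreated array (0.0654 and 0.0573). The hour at which the kidneys were taken is likewise not given, and its part was not tested.

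The metallothionein genes, which bind zinc and copper and answer to metals as well as hormone, rose too. Mt1 rose by 1.60 ± 0.12 in mimic (adjusted p = 0.00423), 0.92 ± 0.12 in control miRNA (0.0317) and 0.74 ± 0.12 in untreated db/db (0.0357), and Mt2 rose by 1.93 ± 0.13 in mimic (0.00367) and 0.86 ± 0.13 in control miRNA (0.0443); its 0.55 ± 0.13 in untreated db/db did not pass (0.0747). Pck1, the rate-limiting enzyme of glucose synthesis in proximal tubule and liver, rose by 2.32 ± 0.25 in mimic (0.00839), with levels of 8.95 and 8.66 in mimic, 7.62 and 7.58 in control miRNA, 7.75 and 7.58 in untreated db/db and 6.11 and 6.85 in normal kidneys. Cdkn1c, a cell cycle inhibitor, rose by 2.40 ± 0.31 in mimic (0.0117) and 1.75 ± 0.31 in untreated db/db (0.0406). It did not pass in control miRNA, although every db/db kidney lay above both normal ones. Its levels were 5.67 and 4.66 in mimic and 4.447 and 4.448 in control miRNA kidneys. They were 4.41 and 4.61 in untreated db/db and 2.74 and 2.79 in normal kidneys. Podocytes of the adult kidney also hold Cdkn1c, and 4 podocyte markers had summed levels of 32.3 to 39.0 in mimic, 26.7 to 32.2 in control miRNA, 29.8 to 33.3 in untreated db/db and 16.2 to 17.3 in normal kidneys. The part of these markers in the Cdkn1c result was not tested. The sulfotransferase gene Sult1a1 rose by 1.69 ± 0.20 in mimic (0.0103) and 1.15 ± 0.20 in untreated db/db (0.0412). Foxo3, a transcription factor of starvation responses, rose by 0.84 ± 0.17 (0.0405) and the receptor kinase gene Mertk, used in clearing dead cells, by 0.55 ± 0.12 (0.0472), both in mimic. Tat, the liver enzyme that was the classical target of the hormone, fell by 0.82 on the log2 scale in mimic kidneys (adjusted p = 0.0475).

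Leaving out mimic replicate 1 gave 8 genes of this list higher in mimic against normal kidneys, 6 of them among the 8 called with all arrays, and none lower, at a median of 0.43 in place of 0.86; 3.38% of all genes were higher then. Leaving out mimic replicate 2 gave 23 higher and 2 lower at a median of 1.39, with 10.4% of all genes higher and 16.1% lower, and leaving out normal replicate 1 or 2 gave 4 higher, with 0.586% or 0.483%. In untreated db/db against normal the count was 12 higher and 1 lower without either mimic array (6.59% and 7.60% of all genes), 1 without either normal or either control miRNA array and 0 without either untreated array; in control miRNA against normal it was 6 without either mimic array (4.58% of all genes) and 0 without any 1 of the other 6. The median of mimic against control miRNA was 0.60 with mimic replicate 1 and 0.16 without it; none of the 36 passed there, but 16 rose and 1 fell without mimic replicate 2, with 5.52% and 7.22% of all genes. Against untreated db/db, the control miRNA kidneys had 29 negative differences of 36 and a median of −0.20.

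**Figure D4:**
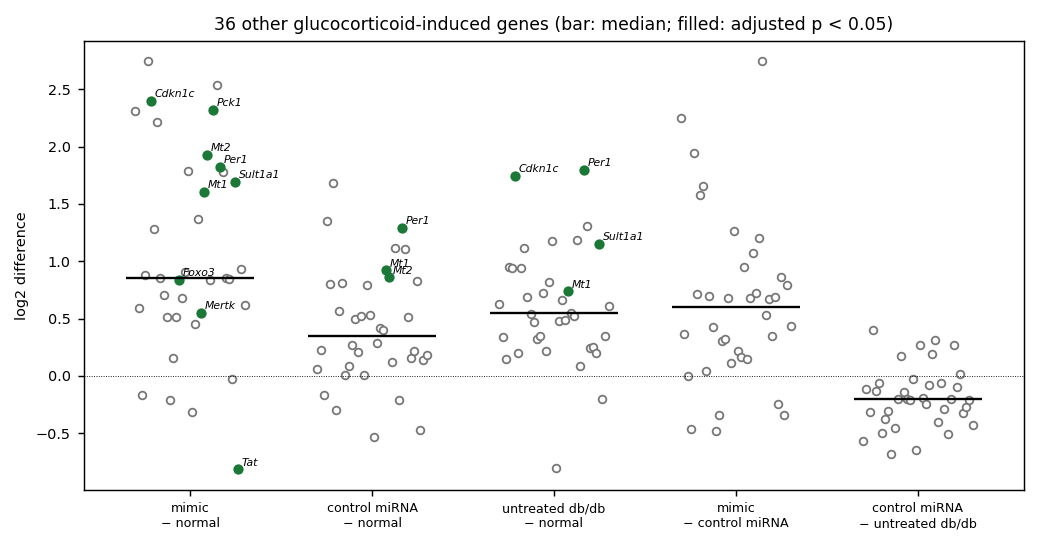
Log2 differences of the 36 other glucocorticoid-induced genes tested, 1 point a gene, in 5 comparisons; bars are medians (0.86, 0.35, 0.55, 0.60 and −0.20 from left to right) and filled, named points have a limma adjusted p under 0.05. Named points stand only in the 3 comparisons with normal kidneys, which share the normal arrays.

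Genes that glucocorticoids repress did not show calls either way. Of 12 inflammatory genes of this kind 9 were tested and none passed in any comparison. The 9 had a median log2 difference from normal of 1.18 in mimic, 0.08 in control miRNA and −0.01 in untreated db/db kidneys. Without mimic replicate 1 the mimic median was 0.01 with 1 gene lower, and without mimic replicate 2 it was 2.24 with 6 of the 9 higher, where 4.06% of all genes were lower and 10.4% higher in these fits. Leaving out either one of the mimic arrays gave 1 lower gene in untreated db/db and 1 in control miRNA against normal, with 7.60% and 5.72% of all genes lower. The 7 immune cell markers had summed levels of 13.9 to 18.7 in mimic, 14.9 to 15.6 in control miRNA, 14.2 to 14.5 in untreated db/db and 27.8 to 30.3 in normal kidneys. Csf1r, the highest of the 7 on every array, weighs most in these sums. It passed as lower in each db/db group against normal. Cd3e and Cd3d passed as lower in mimic only, and another Cd3e probe had the opposite sign. On mimic replicate 1, Cd68 (0.14) and Adgre1 (−0.05) were highest of all arrays and Cd3e (0.59) lowest. The part of these markers was not tested. The chemokine gene Cxcl1 had 2.59 and −2.40 in mimic kidneys and −2.45 to −1.37 on the other 6 arrays, and the adhesion gene Icam1 had 3.51 and 1.51 in mimic kidneys and 1.23 to 1.43 on the other 6. In untreated db/db against normal the smallest p values were those of the chemokine gene Ccl5 (−1.33 ± 0.41, adjusted p = 0.115), the interleukin gene Il1b (−1.56 ± 1.10, 0.414) and the chemokine gene Cxcl10 (0.64 ± 0.76, 0.632).

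The genes whose brightest probe most resembled each member over the 8 arrays were listed as a description, among the genes well above background on all 8 arrays with an SD of at least 0.5, with the group differences and mimic replicate 1 shared by all points. Nr3c1 lay closest to Akr1c21 (r = 0.990), a hydroxysteroid dehydrogenase gene, and Hsd11b1 to Gm10406 (0.980), Ugt2b36 (0.977) and Ugt2b35 (0.976), the last a pair of steroid- and drug-conjugating enzymes. Hsd11b2 lay closest to Defb2 (0.981), Cyp2d10 (0.978) and Cyp2d26 (0.971), Tsc22d3 to Bdkrb2 (0.969) and Tceal3 (0.967), Sgk1 to Lingo2 (0.976) and Wnt10a (0.957) after an unnamed transcript, and Klf15 to Mir22hg (0.948). Zbtb16 lay closest to Dap (0.934), Fkbp5 (0.914) and Cebpd (0.904), so another member and a gene of the induced list stood among its 3. Klf9 reached 0.789 with Lilra6, and Errfi1 0.870 with Tnfsf13b.

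Fkbp5 lay closest to Acnat2 (r = 0.980), a peroxisomal acyltransferase gene, and the next 2 were unnamed transcripts. Acnat2 had log2 levels of 5.28 and 4.03 in mimic, 3.101 and 3.189 in control miRNA, 3.39 and 3.47 in untreated db/db and 3.07 and 2.86 in normal kidneys, the groups in the same order as for Fkbp5. It rose in mimic against normal by 1.68 ± 0.37 (adjusted p = 0.0493). The Acnat2 window shown above is 1 of the 3 of 32851 windows with the exact response element. Another window of Acnat2, at a different start, held neither the element nor a half-site. The gene was singled out after its values and the match were seen.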

How the data were processed

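Kidney RNA of 8 mice in 4 groups of 2 was measured on single-dye Agilent arrays; groups follow the labels. Per the file headers, the deposited scanner files (Agilent Feature Extraction, version 12.0.3.1 in the submitters' processing notes) hold the intensity of each spot after background subtraction and detrending, and they name mm9 for probe positions. The authors' deposited series table holds a ratio; it follows the scanner intensity over the array's 75th percentile, relative to each probe's median across all arrays (r at least 0.999996 in each column, column medians 0.971 to 1.08), so it is linear, centred by probe and rises with expression. Levels in log2 were computed here from the deposited intensity.

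Spots of a probe were averaged, outlier spots and control spots left out, and each array divided by its 75th percentile over 56601 probes. A probe was tested where some group had it well above background on its 2 arrays (33639 probes, 22367 genes) with limma 3.58.1 in R 4.3.3, 1 fit for all 8 arrays with 4 residual and 2.33 prior degrees of freedom, since the small groups share 1 estimate of spread; p-values were Benjamini-Hochberg adjusted over all probes. A gene is given by its brightest probe, and other probes are named where they differ. All members are named, and of each list its counts, its median, the genes that passed and the 3 with the smallest p in untreated db/db against normal. Members and lists were chosen with earlier results of these data known. Arrays were the replicates, labelled as separate mice, and their number limits the precision. The fit was tested on simulated data. Names came from the array, updated through RefSeq GRCm38.p6 (33761 probes by accession, 9869 by symbol, 311 by synonym), which also gave the sequences; Hsd11b2, Zbtb16 and Nr3c1 have no promoter window here. Alternatives were other background correction, normalization, filters, blocks, deposited values, 1 probe a gene and leaving out each array.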

Additional observations from a re-analysis of the deposited data

How the results depend on the processing

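The counts of probes past the threshold moved with the processing more than the members' differences did. Untreated db/db against normal kidneys had 1292 probes, against 3937 with normexp background correction, 318 with no filter on dim probes, 749 with 1 probe a gene (of fewer tested), 3133 with only the 4 arrays compared, 680 with the replicate number as a block, and 33 to 4869 when 1 array was left out. Control miRNA against normal had 508, against 1839 with normexp, 140 with no filter, 926 with only the 4 arrays, 232 with the replicate block, 32 with the array column as a block, and 28 to 3393 without 1 array. Mimic against normal had 2478, against 1243 with no filter, 38 with only the 4 arrays, and 379 to 8374 without 1 array. Mimic against untreated db/db had 0, but up to 5696 without 1 array, and mimic against control miRNA 0, but up to 4036; both counts came without mimic replicate 2, where the array that stood apart was the lone mimic sample, taken to vary like the other groups. Control miRNA against untreated db/db had 0 throughout. The cause was not tested except where fewer samples or probes were used. Higher calls were 480 of 1292, 193 of 508 and 922 of 2478 in untreated, control miRNA and mimic against normal, and quantile normalization gave 50.2%, 48.4% and 50.3% higher.

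Same-numbered samples did not pair (correlation of their deviations −0.03 to 0.16), and the replicate block left the 4 mimic against normal member calls past the threshold and took the second Tsc22d3 probe in untreated db/db to an adjusted p of 0.0507. Differences near 0 changed sign: Nr3c1 in untreated db/db against normal was 0.0454 with normexp and −0.0753 to 0.0618 without 1 array, Errfi1 −0.0568 with quantile normalization and −0.12 to 0.18 without 1 array, and Hsd11b1 in control miRNA against untreated db/db −0.0140 with normexp, −7.3e-05 in the deposited table and −0.12 to 0.12 without 1 array. Leaving out 1 array also turned the sign of Nr3c1 in control miRNA against normal (−0.17 to 0.00424) and against untreated db/db (−0.16 to 0.0110), Klf9 in mimic against normal (−0.13 to 0.36), Klf15 in control miRNA against normal (−0.43 to 0.13), Errfi1 in control miRNA against normal (−0.57 to 0.12) and against untreated db/db (−0.60 to 0.0880), and Hsd11b2 in mimic against control miRNA (−0.0762 to 0.32). Of the other values of the members and Per1 under the alternatives, 807 kept their direction and their side of the threshold, 34 passed newly and 32 were lost. Normexp newly called 6 of them: Hsd11b2 in mimic against normal, Hsd11b1 in control miRNA against normal (adjusted p = 0.0359), and Tsc22d3 (0.0364), Sgk1 (0.0295), Hsd11b1 (0.0258) and Hsd11b2 (0.0296) in untreated db/db against normal. Counts by list without each array were chosen after seeing the data. With 2 mice a group, a missed threshold does not show equal levels.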
